A study of Mus musculus with 58 samples.

Results

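The potassium channel genes were taken as every row of the expression table whose platform gene symbol starts with Kcn, Kcnj10 and Kcnj13 excepted. There were 78 such genes among the 17216 genes with a symbol. Of these, 52 encode pore-forming subunits, 15 encode accessory subunits, 8 encode electrically silent subunits and 3 are non-coding RNAs that carry a Kcn symbol (Kcnmb4os1, Kcnmb4os2 and Kcnq1ot1). RNA of the frontal cortex (called prefrontal cortex in the protocol) and the hippocampus was measured on 58 Affymetrix arrays in 8-month-old mice on a C57BL/6J background. The mice were labelled WT or TG, and the series title names the TG model as APP/PS1, a mouse line used to study the amyloid pathology of Alzheimer's disease. The labels name neither the alleles nor the promoters of the transgenes. The frontal cortex had 14 WT and 14 TG arrays and the hippocampus 15 WT and 15 TG arrays, from 30 mice of both sexes, 28 of which gave both regions. All values are log2 RMA values, and a difference of 1 is a 2-fold change.

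Potassium channels let potassium leave or enter a cell and so set the resting potential, the shape and frequency of action potentials and the return to rest after synaptic input. The voltage-gated families (Kcna to Kcnd, Kcnh and Kcnq) open on depolarisation, the inward rectifiers (Kcnj) and the leak channels (Kcnk) act near rest, and the Kcnma1, Kcnn and Kcnt families respond to intracellular calcium or sodium. Accessory subunits (Kcnab, Kcne, Kcnip, Kcnmb) change the gating or surface level of a pore, and silent subunits (Kcnf, Kcng, Kcns, Kcnv) form no channel alone but alter others they assemble with. In the brain most of these genes are known from neurons. Kcnk6, Kcnk13, Kcna3, Kcnn4 and Kcnj2 have been reported in microglia or macrophages, Kcnj16 in astrocytes, Kcnj8 in pericytes and Kcne2 in the choroid plexus.

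RefSeq start-site windows (GRCm38.p6, from 250 bases before to 50 after the start) could be matched to 60 of the 78 genes. The windows of 3 genes that were lower in the TG frontal cortex are printed to show how differently such genes are built around their start. They run 5′ to 3′, and the capitals mark CG pairs and, in Kcnj4, also the run TGACG.
Kcnf1, chr12:17176839-17177138, minus strand: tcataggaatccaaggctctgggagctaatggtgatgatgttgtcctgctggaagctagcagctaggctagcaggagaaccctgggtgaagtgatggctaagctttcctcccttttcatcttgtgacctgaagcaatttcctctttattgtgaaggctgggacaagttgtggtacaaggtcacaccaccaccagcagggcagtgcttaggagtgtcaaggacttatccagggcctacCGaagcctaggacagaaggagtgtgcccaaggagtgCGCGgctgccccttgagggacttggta
Kcnh1, chr1:192190527-192190826, plus strand: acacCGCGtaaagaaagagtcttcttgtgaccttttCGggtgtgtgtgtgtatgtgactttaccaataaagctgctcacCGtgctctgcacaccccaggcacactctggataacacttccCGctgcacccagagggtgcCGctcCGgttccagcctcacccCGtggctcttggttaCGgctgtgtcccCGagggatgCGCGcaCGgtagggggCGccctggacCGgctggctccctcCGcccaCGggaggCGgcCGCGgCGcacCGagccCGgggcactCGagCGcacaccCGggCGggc
Kcnj4, chr15:79505192-79505491, minus strand: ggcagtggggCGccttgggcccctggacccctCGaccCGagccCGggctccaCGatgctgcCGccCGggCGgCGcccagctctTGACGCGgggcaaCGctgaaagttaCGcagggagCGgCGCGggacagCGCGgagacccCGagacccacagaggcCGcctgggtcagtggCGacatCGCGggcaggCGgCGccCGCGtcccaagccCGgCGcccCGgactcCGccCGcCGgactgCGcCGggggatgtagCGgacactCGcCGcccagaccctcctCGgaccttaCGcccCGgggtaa
The Kcnf1 window holds 3 CG pairs, that of Kcnh1 27 and that of Kcnj4 41. Taking the window with the most CG pairs for each gene, the median was 19 for the 31 genes with a window among the 38 lower in the TG frontal cortex (range 3 to 48). It was 10 for the 29 with a window among the other 40 (range 1 to 32). Genes with more windows have more chances of a high count, and the other 40 include genes near the lower end of the arrays. Whether the 2 sets differ was not tested. Over single windows the median was 9 for the Kcn genes and 7 for all windows. Searched on both strands, the full cyclic AMP response element TGACGTCA was found in 0 of 85 windows of Kcn genes, and in 1.79% of all 32851 windows. Its part TGACG, which the full element contains, was in 17.6% of the Kcn windows and 20.8% of all windows. The PU.1 core GAGGAAGT was in 0 Kcn windows (3.2% of all) and the AP-1 motif TGAGTCA in 2.35% (5.2% of all). These are counts of letters in short windows.

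Across the arrays the labels were checked first. Thy1, whose probe set separated the genotypes, lay between 10.6 and 11.4 in WT and between 11.9 and 12.4 in TG arrays, apart from the array labelled TG of hippocampus mouse 7 (a female), at 10.9. That array also had a choroid plexus marker mean of 8.08, and a microglial marker mean of 6.71, within the WT range. The hippocampus array of TG female mouse 4 had a mean of 5.76 for 10 hippocampal field markers, against 7.07 to 7.69 in the other hippocampus arrays and 5.18 to 5.56 in the frontal cortex. Results on the hippocampus are therefore given with and without these arrays. Male and female mice carried separate number ranges, and the labels name no batch. Of the 78 genes, 13 had a mean below the 25th percentile of an array, and 40 below its median, where small differences are hard to measure.

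In the frontal cortex, 38 of the 78 Kcn genes were lower in TG mice and 4 were higher. Over all genes tested, 18.7% were lower and 12.9% higher, against 48.7% and 5.13% of the Kcn genes. The median difference of the Kcn genes was -0.15 and that of all genes -0.01, and 57 Kcn genes had an estimate below 0. Among genes above the median brightness, 27 of 37 Kcn genes were lower (73.0%), against 35.2% of all such genes. Calls are an adjusted p under 0.05 in limma, with Benjamini-Hochberg adjustment over all 17216 genes. With array medians made equal, all genes split into 5013 lower and 1655 higher in place of 3219 and 2227, and the Kcn genes into 43 lower and 3 higher.

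**Figure D1:**
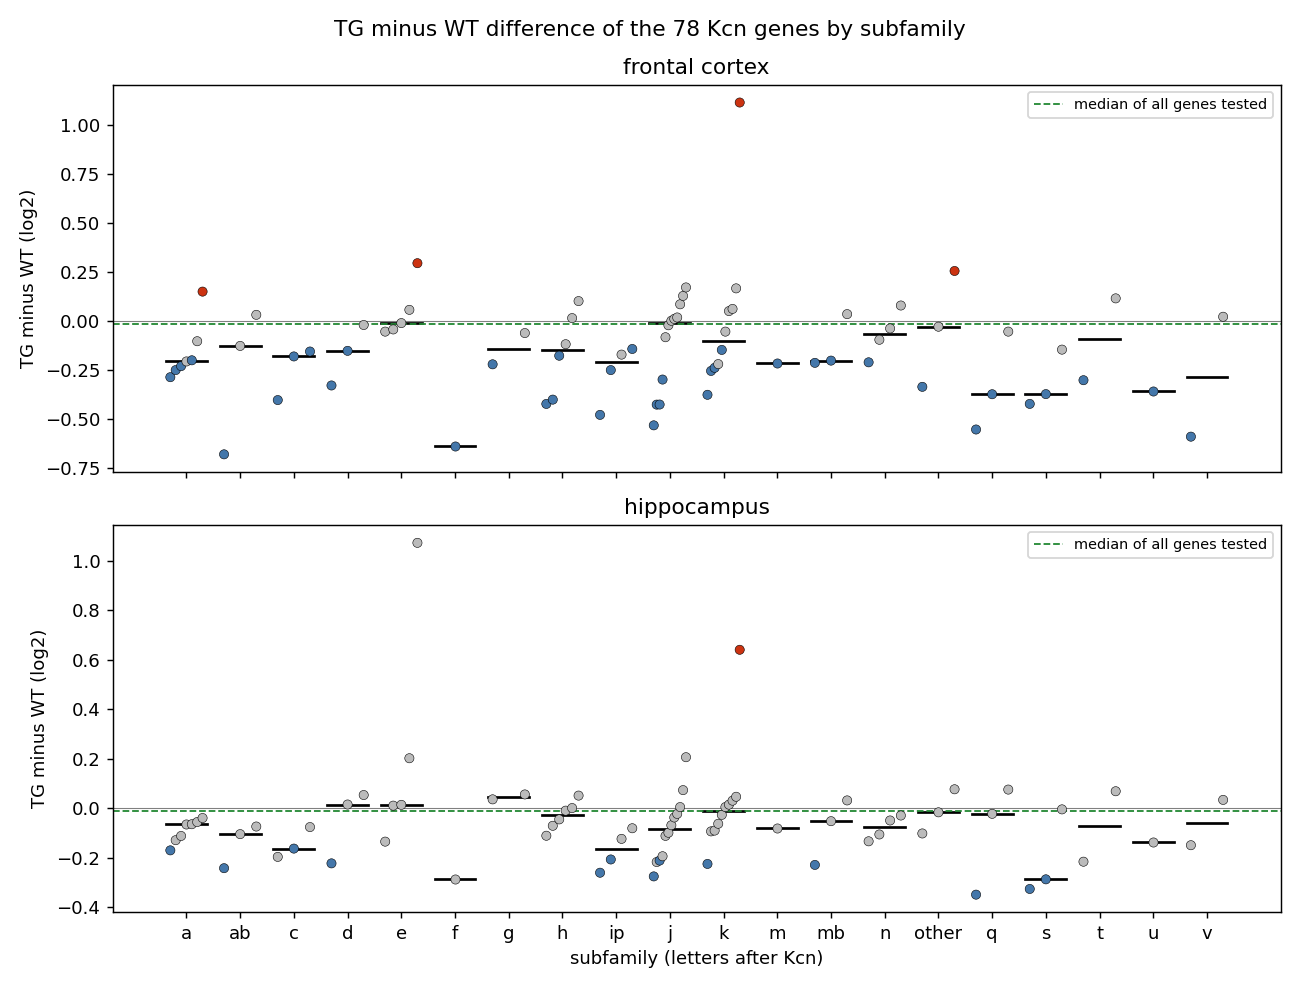
The difference TG minus WT (log2) of each of the 78 Kcn genes, by the letters after Kcn, in the frontal cortex (upper panel) and the hippocampus (lower panel). Each point is 1 gene, blue where called lower, red where called higher and grey otherwise; black lines are subfamily medians and the dashed line is the median of all genes tested. In the cortex most points lie below the dashed line, while the single red point of subfamily k is Kcnk6 at 1.11.

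The falls were spread over the subfamilies. Of the 8 silent subunit genes 5 were lower and 0 higher, with a median difference of -0.30. Of the 52 pore genes 26 were lower and 2 higher (median -0.15), and of the 15 accessory genes 6 were lower and 1 higher (median -0.13). All 3 Kcnc genes, 3 of 4 Kcnip genes, 2 of 3 Kcnq genes, 2 of 3 Kcns genes and 4 of 7 Kcna genes were lower. The Kcnj and Kcnk families were more mixed, with 4 of 12 and 4 of 10 lower, and the Kcne family had 0 of 5 lower. Among their genes not called, Kcnj1, Kcnj2, Kcnj5, Kcnj15, Kcnk5, Kcne1, Kcne2 and Kcne3 had cortical group means of 2.82 to 3.21. That is below the 25th percentile of the arrays, where a fall is hard to measure. Most falls were small: 3 of the 38 were at least 1.5-fold.

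Kcnab1 showed the largest fall. It encodes a beta subunit that gives fast inactivation to Kcna-type channels. Its level lay at 6.71 to 7.77 in WT (median 7.42) against 6.01 to 7.24 in TG frontal cortex (median 6.75). The groups overlapped, with 6 of 14 TG arrays below every WT array, and the difference was -0.68 ± 0.10 (SE, adjusted p = 5.93e-06), a 1.60-fold fall.

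The silent subunits followed. Kcnf1 was at 6.20 to 7.28 in WT (median 6.68) against 5.43 to 6.39 in TG arrays (median 6.17), with 7 of 14 TG arrays below all WT arrays. It fell by 0.64 ± 0.10 (adjusted p = 1.93e-05), or 1.56-fold. Kcnv1, a silent partner of Kcnb channels, was at 7.35 to 8.14 in WT (median 7.80) against 6.53 to 7.64 in TG (median 7.19). In 11 of 14 TG arrays it was below every WT array, and it fell by 0.59 ± 0.08 (adjusted p = 3e-06). Kcns2 and Kcns1, also silent partners of Kcnb channels, fell by 0.42 ± 0.07 and 0.37 ± 0.07. For Kcns2 the median was 6.61 in WT and 6.15 in TG arrays. Kcng2 fell by 0.22 ± 0.08 (adjusted p = 0.0416). The other silent genes did not pass, with Kcns3 at -0.15 (adjusted p = 0.166), Kcng4 at -0.06 and Kcnv2 at 0.02.

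Among the voltage-gated pores, Kcnq3 and Kcnq5 encode subunits of the M current, a slow current that damps repetitive firing. Kcnq3 was at 4.49 to 5.62 in WT (median 5.11) against 4.08 to 5.08 in TG arrays (median 4.54), and fell by 0.55 ± 0.09 (adjusted p = 1.98e-05). Kcnq5 fell by 0.37 ± 0.07 (adjusted p = 5.82e-05). The ether-a-go-go genes Kcnh5 and Kcnh1 fell by 0.42 ± 0.11 and 0.40 ± 0.04. For Kcnh1 the groups were nearly apart, with WT arrays from 7.62 to 8.10 (median 7.94) and TG arrays from 7.39 to 7.69 (median 7.51), 11 of 14 TG arrays lying below every WT array (adjusted p = 3.13e-08). Kcnh3, a close relative, differed by 0.01 (adjusted p = 0.894).

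Kcnc2 and Kcnc1, which let fast-spiking neurons repolarise quickly, fell by 0.40 ± 0.06 (adjusted p = 2.05e-06) and 0.18 ± 0.04 (adjusted p = 0.00174). Kcnc2 was at 8.44 to 9.08 in WT against 8.14 to 8.62 in TG arrays. Of 7 interneuron markers (Pvalb, Tac1, Gad1, Gad2, Lhx6, Erbb4 and Syt2), 4 were lower. Not all of these are particular to parvalbumin interneurons, the best known fast-spiking cells. The mean level of the 7 was at 6.45 to 6.66 in WT against 6.04 to 6.44 in TG arrays. The axonal channel gene Kcna1 fell by 0.20 ± 0.06 (adjusted p = 0.0167) and Kcna2 by 0.23 ± 0.05 (adjusted p = 0.000381). Kcnd2, the main dendritic A-type pore of pyramidal cells, fell by 0.33 ± 0.07 (adjusted p = 0.000217). Its calcium-binding partners Kcnip4 and Kcnip2 fell by 0.48 ± 0.07 (adjusted p = 1.67e-06) and 0.14 ± 0.05 (adjusted p = 0.0208). For Kcnip4 the WT arrays ran from 8.04 to 8.68 (median 8.40) and the TG arrays from 7.57 to 8.37 (median 7.91). The call for Kcnip2 was lost without TG female mouse 11 (adjusted p = 0.0508).

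Excitatory neuron markers were at a mean of 8.27 to 8.82 in WT and 8.23 to 8.74 in TG arrays, with 4 of 6 lower and 1 higher. Of 8 cortical layer markers, 5 were lower. In this bulk tissue, fewer cells of a type and less RNA per cell cannot be told apart. The part of these markers in the falls was not tested.

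Of the inward rectifiers, Kcnj12 and Kcnj4 encode strong rectifiers that hold the resting potential. Kcnj12 was at 4.55 to 5.96 in WT (median 5.47) against 4.23 to 5.25 in TG arrays (median 4.97), and fell by 0.53 ± 0.13 (adjusted p = 0.00142). Kcnj4 was at 7.40 to 7.82 in WT (median 7.64) against 6.78 to 7.45 in TG arrays (median 7.23), and fell by 0.43 ± 0.06 (adjusted p = 6.59e-07). The G protein-gated genes Kcnj3 and Kcnj9 fell by 0.43 ± 0.06 (adjusted p = 1.34e-06) and 0.30 ± 0.06 (adjusted p = 0.00058). For Kcnj6 and Kcnj5, the other measured genes of that group, the differences were -0.02 (adjusted p = 0.798) and 0.01 (adjusted p = 0.902). The leak channel genes Kcnk12 and Kcnk1 fell by 0.38 ± 0.09 and 0.24 ± 0.05. Kcnma1, the pore of the large-conductance calcium-activated channel, fell by 0.22 ± 0.04 (adjusted p = 2.25e-05), with its beta subunits Kcnmb4 (0.21 ± 0.05) and Kcnmb2 (0.20 ± 0.05). The non-coding Kcnmb4os2, named for its position opposite Kcnmb4, fell by 0.34 (adjusted p = 0.00178).

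The rise of Kcnk6 stood against these falls. Kcnk6 encodes a leak channel known in macrophages for the potassium efflux that precedes inflammasome activation. It was the 1 Kcn gene of 78 whose cortical groups did not overlap, as was so for 2.2% of all genes. Its WT arrays ran from 5.00 to 5.44 (median 5.19) and its TG arrays from 5.57 to 6.83 (median 6.29). It rose by 1.11 ± 0.08 (adjusted p = 3.52e-12), a 2.17-fold increase, with 1.05 in males and 1.18 in females. Microglial markers rose with it, all 7 of 7 measured, and their mean level was at 6.60 to 7.12 in WT against 8.32 to 9.36 in TG arrays; their part in the rise was not tested. No other Kcn gene reported in microglia or macrophages was called higher. Kcnk13, a leak channel of resting microglia, differed by 0.17 (adjusted p = 0.0519), Kcnn4 by 0.08 (adjusted p = 0.124) and Kcnj2 by 0.08 (adjusted p = 0.171). Kcnk13 passed as higher on leaving out any of 7 of the 28 arrays. The cortical group means of Kcnn4 and Kcnj2 were 3.12 to 3.22, below the 25th percentile of the arrays (3.26 to 3.38). A rise is hard to measure at that level. Kcna3 was lower, by 0.25 ± 0.10 (adjusted p = 0.0487). The call for Kcna3 was lost on leaving out any of 20 of the 28 arrays.

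**Figure D2:**
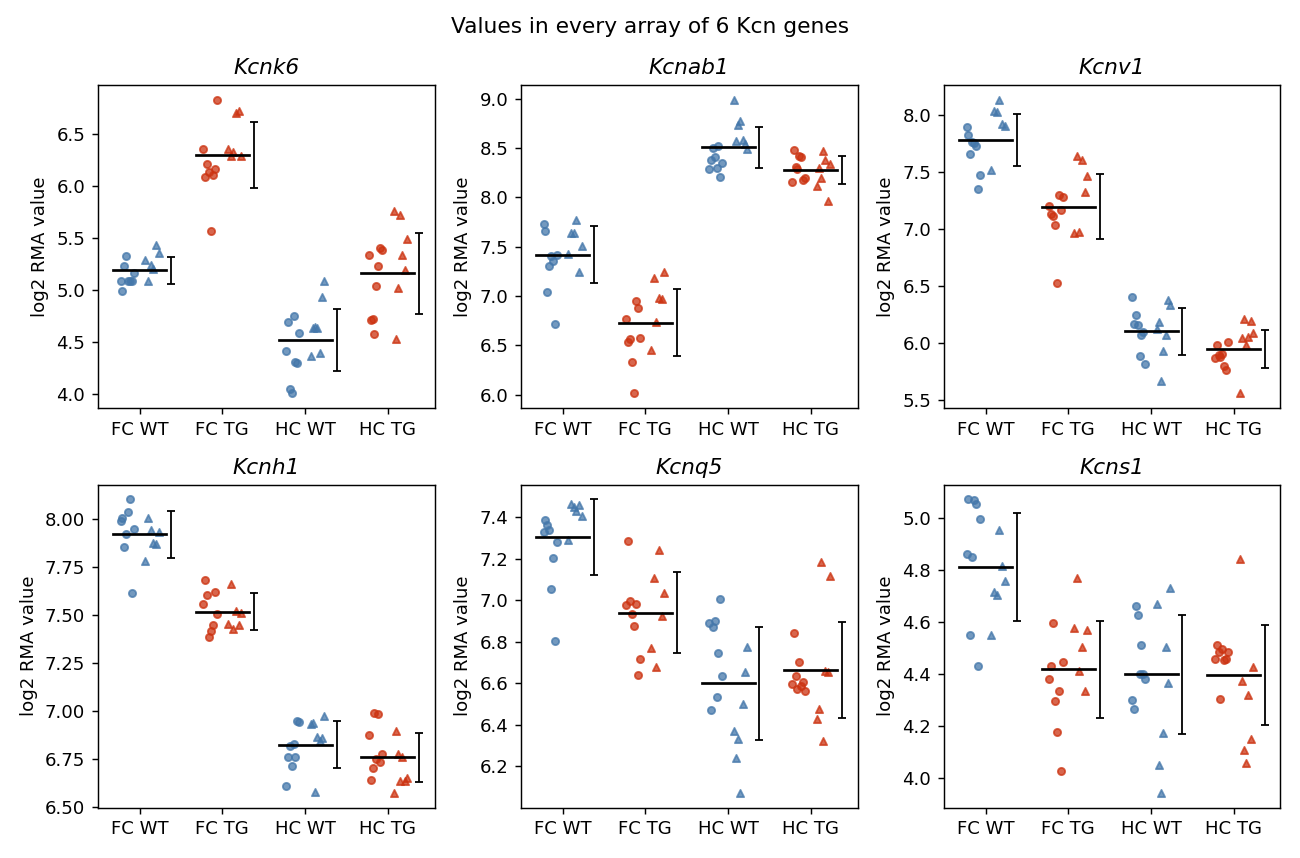
Log2 RMA values of 6 Kcn genes in every array, by region (FC, frontal cortex; HC, hippocampus) and genotype. Circles are males, triangles females, black lines group means and the error bars 1 SD. The Kcnk6 groups in the frontal cortex do not overlap, and Kcnv1 and Kcnh1 fall in the cortex but lie close together in the hippocampus.

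The other rises were smaller. Kcne1l, an accessory subunit gene, was at 3.50 to 3.96 in WT against 3.69 to 4.43 in TG arrays and rose by 0.29 ± 0.07 (adjusted p = 0.000909). Kcnq1ot1, a long non-coding RNA transcribed opposite Kcnq1, rose by 0.25 ± 0.06 (adjusted p = 0.00276), while Kcnq1 itself differed by -0.05 (adjusted p = 0.463). Kcna7 rose by 0.15 ± 0.05 (adjusted p = 0.0253), a call lost without WT female mouse 5 or TG female mouse 9. The astrocyte gene Kcnj16 differed by 0.13 (adjusted p = 0.262) beside 8 of 8 astrocyte markers that were higher. The pericyte gene Kcnj8 differed by 0.17 (adjusted p = 0.0972), beside 4 of 6 pericyte and 3 of 6 endothelial markers that were higher. Of the oligodendrocyte markers 4 of 7 were higher, and of the striatal markers 2 of 5 were lower, with a mean of 5.00 to 5.32 in WT against 4.59 to 5.13 in TG arrays; their part in the cortical changes was not tested.

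The cortical changes had the same sign in both sexes for 41 of the 42 genes called, the exception being Kcnc4, at -0.36 in females and 0.05 in males. The calls were made on the mean of both sexes, which favours genes of equal sign, so this count is no separate evidence. Within the same fit, the difference of males alone gave 29 lower and 3 higher, and that of females alone 24 lower and 2 higher. The shares over all genes were not counted for 1 sex. Leaving out 1 array at a time gave between 37 and 42 calls, and 35 of the 42 calls held in each such fit. Besides Kcna3, Kcna7 and Kcnip2, the calls lost in at least 1 of them were Kcng2 (18 arrays), Kcnh2 (19 arrays), Kcnc4 (15 arrays) and Kcnd3 (8 arrays).

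In the hippocampus, 13 Kcn genes were lower in TG mice and 1 was higher. Over all genes 2.70% were lower and 3.94% higher, against 16.7% and 1.28% of the Kcn genes, and the median difference was -0.07 for the Kcn genes and -0.01 for all genes. With array medians made equal the split of all genes turned, to 1213 lower and 567 higher in place of 465 and 678, and the Kcn genes had 21 lower and 1 higher. All 14 genes called had the same sign in both sexes, again among calls made on the mean of both sexes. Males alone gave 2 calls (Kcnk6 and Kcnip1) and females alone 6, again without a count over all genes. Without the arrays of mice 4 and 7 there were 13 calls, 12 of them shared: Kcnj3 (adjusted p = 0.0748) and Kcnmb2 (adjusted p = 0.0889) no longer passed and Kcnj4 did. With the choroid plexus marker mean as a covariate 8 passed, 7 of them shared. The choroid plexus markers of the hippocampus were at 3.72 to 7.81 in WT against 3.85 to 8.24 in TG arrays.

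Kcnk6 was again the gene that rose. Its values were at 4.01 to 5.09 in WT (median 4.59) against 4.53 to 5.76 in TG hippocampus (median 5.24), 9 of 15 TG arrays lying above every WT array. The lowest TG value was that of the array labelled TG of mouse 7. The difference was 0.64 ± 0.11 (adjusted p = 0.000433), or 1.56-fold, and 0.67 (adjusted p = 7.35e-05) without mice 4 and 7. Microglial markers were higher too, 7 of 7, with a mean of 6.46 to 6.85 in WT against 6.71 to 8.87 in TG arrays.

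The largest hippocampal fall was that of Kcnq3, whose arrays were at 4.87 to 5.63 in WT (median 5.22) against 4.27 to 5.20 in TG (median 4.86). It fell by 0.35 ± 0.09 (adjusted p = 0.0099). The silent genes Kcns3 and Kcns2 fell by 0.33 ± 0.07 (adjusted p = 0.00542) and 0.29 ± 0.06 (adjusted p = 0.0026). For Kcns2 the median was 6.77 in WT and 6.51 in TG hippocampus. Kcnip4 and Kcnab1 fell by 0.26 ± 0.05 (adjusted p = 0.000866) and 0.24 ± 0.05 (adjusted p = 0.00345). Kcnd2 fell by 0.22 ± 0.06 (adjusted p = 0.0311), a call lost without WT female mouse 2 or TG female mouse 11. These 6 falls and the rise of Kcnk6 were the calls kept with the choroid covariate.

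The remaining falls were Kcnj12 (0.28), Kcnmb2 (0.23), Kcnk12 (0.22), Kcnj3 (0.21), Kcnip1 (0.21), Kcna2 (0.17) and Kcnc1 (0.16), with adjusted p from 0.0135 for Kcnc1 to 0.0472 for Kcnj12. The calls for Kcnj12, Kcnip1, Kcnj3 and Kcnmb2 were lost without 1 of 20, 10, 9 and 9 arrays, so 9 of the 14 calls held in every such fit. Kcnip1 encodes another Kcnd partner. Of the same interneuron markers as in the cortex, 3 of 7 were lower, with a mean of 6.15 to 6.58 in WT against 6.03 to 6.43 in TG arrays. Of the 6 excitatory markers 0 were called lower and 0 higher. Their mean was at 8.59 to 8.88 in WT against 8.26 to 8.81 in TG arrays.

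Of the 38 genes lower in the TG cortex, 35 had an estimate below 0 in the hippocampus and 11 passed there, Kcnk6 being the twelfth gene called in both regions. Over all 78 Kcn genes, 55 were below 0 in the hippocampus and 13 passed as lower. Such counts were not made for all genes lower in the TG cortex. The mice of both regions were mostly the same animals, so the counts of cortex and hippocampus are not independent. Kcnip1 and Kcns3 passed in the hippocampus alone, with cortical differences of -0.17 (adjusted p = 0.118) and -0.15.

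**Figure D3:**
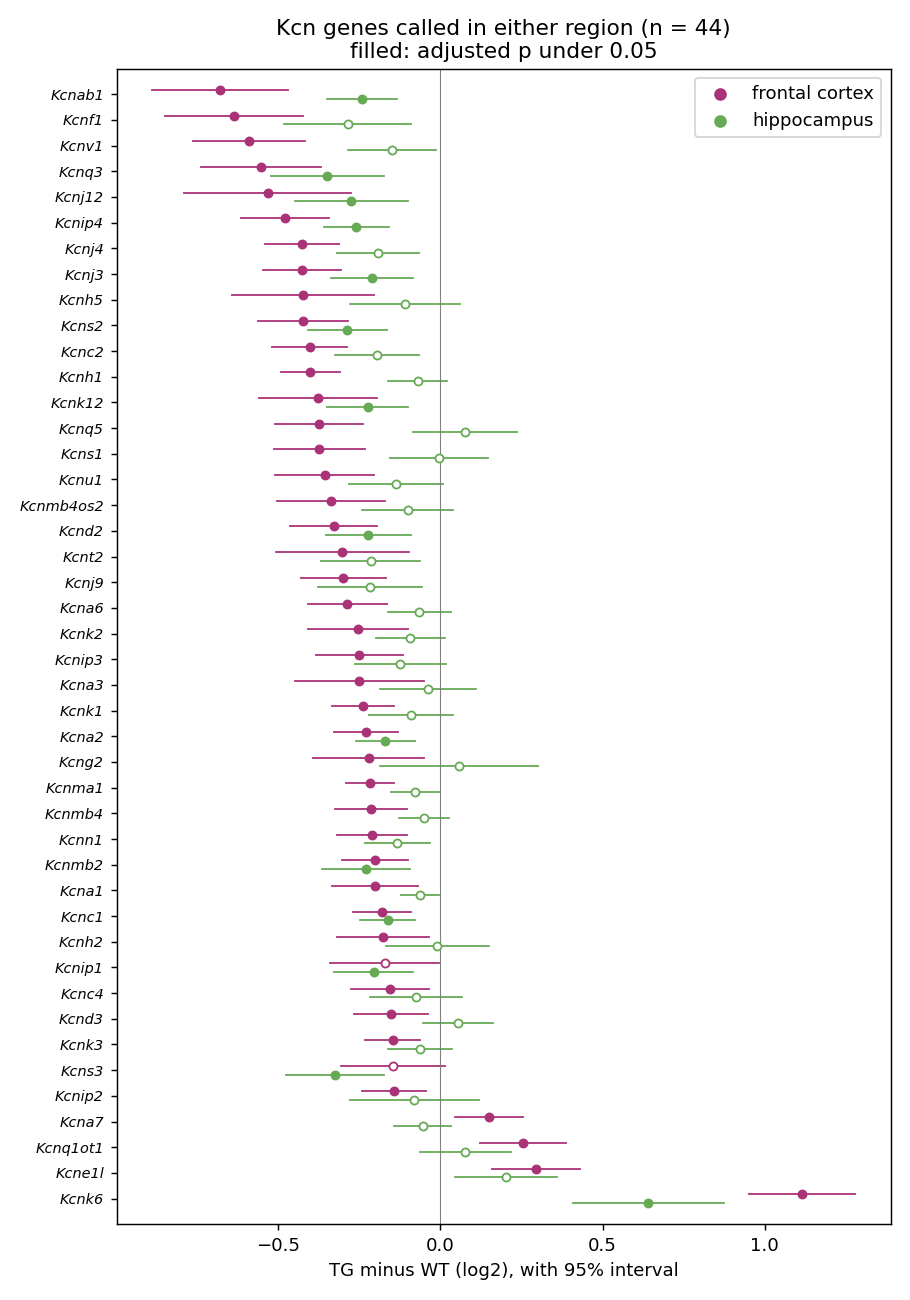
The difference TG minus WT (log2) with its 95% interval for the 44 Kcn genes called in either region, in order of the cortical estimate. Filled points passed at an adjusted p under 0.05. Most cortical estimates lie further from 0 than those of the hippocampus, and Kcnk6 is at 1.11 and 0.64.

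The difference between the regions was tested directly. The TG effect differed between hippocampus and frontal cortex for 6 Kcn genes, which is 7.69% of them, against 6.89% of all genes, a share near the background. Kcnh1 fell by 0.40 in the cortex and had -0.07 in the hippocampus, a difference of 0.33 ± 0.06 (adjusted p = 0.000397). Kcnq5 had -0.37 and 0.08 (difference 0.45 ± 0.11, adjusted p = 0.00476). Kcnv1 had -0.59 and -0.15 (difference 0.44 ± 0.11, adjusted p = 0.00773). Kcnab1 had -0.68 and -0.24 (difference 0.44 ± 0.12, adjusted p = 0.0125), and Kcns1 had -0.37 and 0.00 (difference 0.37 ± 0.10, adjusted p = 0.0196). Kcnk6 rose less in the hippocampus, by a difference of -0.47 ± 0.15 (adjusted p = 0.0351), beside 7 of 7 microglial markers with a smaller rise there.

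Each of these 6 differences passed without the hippocampus arrays of mice 4 and 7, when 10 genes passed in all, and 12 passed without that of mouse 4 alone. The difference for Kcnk6 was lost on leaving out any of 10 of the 58 arrays, with an adjusted p of up to 0.0608. These were TG male 53, WT female 2 and TG female 11 in the cortex and WT male 48, TG males 41, 43 and 44, WT female 14 and TG females 7 and 8 in the hippocampus. The other 5 held in all of these fits.

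In WT mice the regions themselves differed for 47 of the 78 Kcn genes, 34 lower and 13 higher in the hippocampus. Over all genes 19.2% were lower and 19.6% higher, against 43.6% and 16.7% of the Kcn genes. For 12 of the 78 Kcn genes the arrays of the regions did not overlap, which held for 5.69% of all genes. The same mice gave both regions, and with a term for the mouse, fixed or random, 48 genes passed, 46 and 47 of them shared.

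Kcnv1 differed most. It ran from 7.35 to 8.14 in WT frontal cortex and from 5.66 to 6.40 in WT hippocampus, which do not overlap, and was 3.26-fold lower in the hippocampus (-1.70 ± 0.08, adjusted p = 4.25e-26). Kcnt1, a sodium-activated channel gene, was at 5.99 to 6.47 in WT cortex and 4.66 to 5.31 in WT hippocampus, 2.53-fold lower. The ether-a-go-go family was lower for 5 of 6 members, with Kcnh5 at -1.23, Kcnh3 at -1.16 and Kcnh1 at -1.09. Kcnj12 (-1.20), Kcnf1 (-1.15), Kcnj4 (-0.86), Kcnj9 (-0.78) and Kcnmb4 (-0.77) completed the 10 largest differences of this direction. Each had an adjusted p of 1.9e-13 or below.

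Kcnab1 was the gene most raised in the hippocampus. It ran from 6.71 to 7.77 in WT cortex and from 8.21 to 8.99 in WT hippocampus, a 2.12-fold difference (1.09 ± 0.08, adjusted p = 5.22e-17). Kcng2, a silent subunit gene (0.81), Kcnn2, a small-conductance calcium-activated channel gene (0.63), and Kcnab2 (0.55) were also fully apart. The A-type pore and partner Kcnd2 (0.52) and Kcnip2 (0.51) were higher too, Kcnip2 again without overlap. So were Kcns3 (0.54) and Kcna4 (0.41), while Kcnip1 (-0.48) and Kcnip4 (-0.36) were lower. Kcna1 (0.23) and Kcne1l (0.22) closed this list. Beside these differences 7 of 7 oligodendrocyte markers and 10 of 10 hippocampal field markers were higher in the hippocampus. Of 8 cortical layer markers, 5 were lower and 2 higher there. The part of these markers was not tested.

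**Figure D4:**
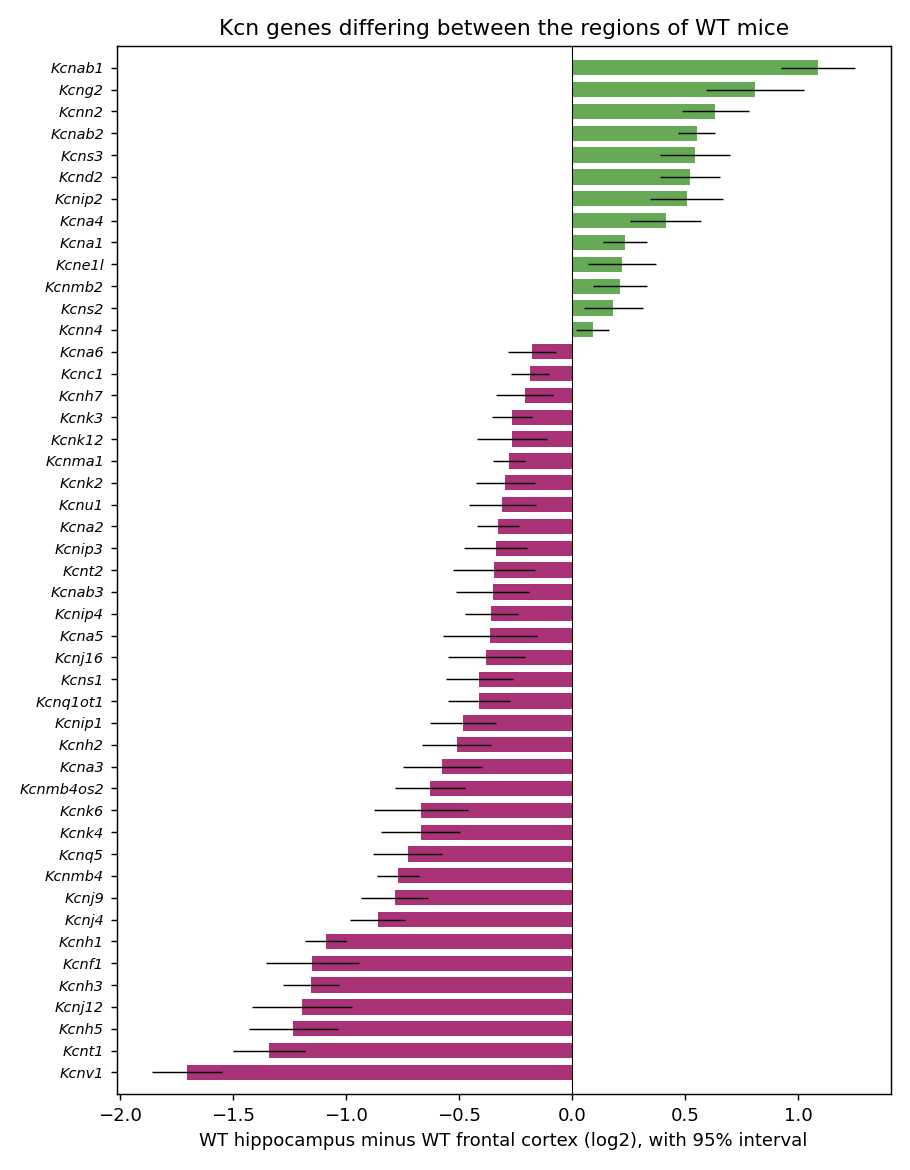
The difference WT hippocampus minus WT frontal cortex (log2) of the 47 Kcn genes called, as bars from 0 with 95% intervals (n = 15 hippocampus and 14 frontal cortex arrays). The bars run from -1.70 for Kcnv1 to 1.09 for Kcnab1.

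The TG effect differed between females and males for 0 Kcn genes in limma in either region, as for all genes (0% in the frontal cortex and 0% in the hippocampus). At an unadjusted p under 0.05 there were 4 Kcn genes in the cortex (1130 genes in all) and 10 in the hippocampus (842 genes in all). In the cortex the smallest p belonged to Kcnc4 (female minus male -0.41, adjusted p = 0.712), Kcnv2 (0.27, adjusted p = 0.712) and Kcnk10 (-0.25, adjusted p = 0.718). In the hippocampus it belonged to Kcnip4, at -0.43 in females and -0.09 in males, Kcnab1, at -0.42 and -0.06, and Kcns2, at -0.47 and -0.10, with adjusted p-values that stayed far above the threshold. The intervals of these differences are wide with 6 to 8 arrays per group.

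Kcne2 varied more than any other Kcn gene, with a residual SD of 1.29 against 0.31 for the next, Kcnj12. It encodes an accessory subunit of the choroid plexus epithelium. In the frontal cortex it lay between 2.62 and 3.15. In the hippocampus 13 of 15 WT arrays lay between 2.86 and 3.83 and 9 of 15 TG arrays between 2.86 and 3.27. The other arrays, 2 WT and 6 TG, lay between 6.30 and 8.09. In those 8 arrays the choroid plexus marker mean (Kcnj13 left out) was 6.55 or more, and in all other hippocampus arrays it was 5.07 or less. The TG difference of 1.07 ± 0.60 in the hippocampus did not pass (adjusted p = 0.335) and was -0.15 (adjusted p = 0.516) with the choroid plexus mean as a covariate. Between the WT regions Kcne2 was 0.77 higher in the hippocampus without passing (adjusted p = 0.196). With that covariate the limma estimate was -0.72 (adjusted p = 2.76e-06). The array medians, 2.92 in WT cortex and 3.10 in WT hippocampus, show no lower level in the hippocampus. Kcne2 stepped up with the choroid plexus mean rather than along a line, and that mean differed between the regions. The covariate estimate therefore cannot be read as a region difference.

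**Figure D5:**
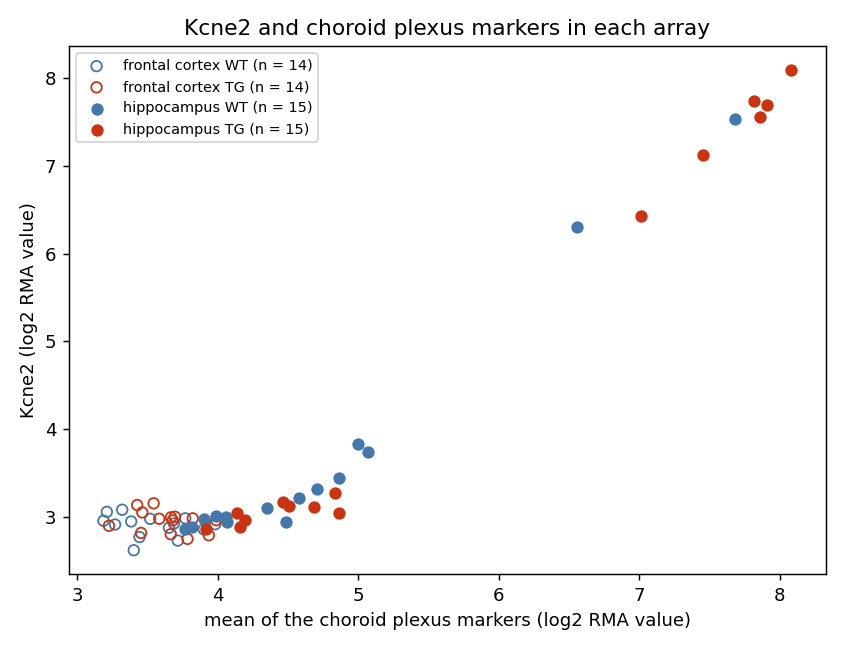
Kcne2 against the mean of the choroid plexus markers, both as log2 RMA values, 1 point per array. Frontal cortex arrays are open and hippocampus arrays filled, WT blue and TG red. The 8 hippocampus arrays with Kcne2 above 6 are those with the highest choroid plexus means.

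Genes that act with these channels but carry other symbols were listed too. Of 21 measured partners, 12 were lower in the TG cortex and 0 higher, with a median difference of -0.15. Over all genes 18.7% were lower and 12.9% higher, with a median of -0.01. Lgi1, a secreted protein that acts on Kcna channels at the axon, fell by 0.36 (adjusted p = 1.6e-06), and Dpp6 and Dpp10, which join Kcnd channels, fell by 0.31 and 0.29. Akap5, a scaffold protein, fell by 0.33. In the hippocampus 2 of the 21 were lower, Akap5 by 0.22 and Adam22 by 0.11, where 2.7% of all genes were lower. The mean of the partners ran from 6.81 to 6.92 in WT cortex and from 6.68 to 6.75 in TG cortex.

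Of 10 measured genes of potassium transport, 6 were higher and 4 lower in the TG cortex, against 12.9% and 18.7% of all genes. Fxyd1, a regulator of the sodium pump, rose by 1.04 (adjusted p = 1.03e-10), and the pump's beta subunits Atp1b2 and Atp1b3 rose by 0.38 and 0.37. The third, Atp1b1, fell by 0.22, and Slc12a5, the neuronal chloride extruder, by 0.20. Of the hyperpolarisation-activated Hcn channels, 2 were measured, Hcn3 with a difference of -0.11 (adjusted p = 0.201) and Hcn2 with -0.04 (adjusted p = 0.697) in the cortex.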

How the data were processed

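The authors deposited 1 RMA value on the log2 scale for each probe set, computed in R 3.2.2 according to the submitters' processing notes; RNA was labelled with a 3′ IVT kit, per the labels' protocols. Which chip definition file they used is not stated in the labels. The table has 17856 probe sets with values from 2.28 to 13.6. Symbols from the platform annotation named 17216 of them, and 640 without a symbol were left out of the tests. Array medians lay between 4.73 and 4.85; the number of arrays and the brightness of a probe set limit the precision.

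The values were used as deposited. In R 4.3.3 with limma 3.58.1, lmFit and eBayes were fitted to the 4 groups of a region (region by sex by genotype), TG against WT was averaged over the sexes, and comparisons between regions used all 8 groups. Tests were two-sided over 17216 genes with Benjamini-Hochberg adjustment at 0.05, and intervals are at 95%. Nothing says how the arrays were run, so no batch could be checked.

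The members, gene lists and named genes were chosen with earlier results of these data known. The rule named every gene called in a TG comparison (up to 15 each way per region), the 10 largest WT region differences each way, the genes called in a difference test or else the 3 of smallest p, a set of genes with known cell types, and up to 4 genes of the partner and transport lists. Genes named outside it, such as Kcnk1, Kcnmb4os2, Kcnh3 in the TG comparison and Slc12a5, were chosen after their values were seen.

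Both regions came from the same mouse for 28 mice, per the labels' protocols. The deviations of a mouse's 2 arrays from their group means had correlations from -0.03 to 0.36 (median 0.11), over 0.1 in 15 mice. No 2 arrays held identical values.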

Additional observations from a re-analysis of the deposited data

Results flagged for a closer look

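A check for single arrays far from the rest of their group (the gap to the nearest array over the group's range, against Dixon's critical value) was made for 47 Kcn genes in 8 groups. It marked 29 of 376 checks, and chance alone marks about 1 in 20, or 18.8. Several marks came from the same arrays.

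In the frontal cortex of WT female mouse 1, 5 genes were low: Kcnv1 at 7.52 (others 7.91 to 8.14), Kcnip4 at 8.35, Kcns2 at 6.24, Kcnq5 at 7.29 and Kcnj9 at 6.31. Its hippocampus array was high for Kcnip4 at 8.58 and for Kcnc4 at 5.27. The frontal cortex array of WT male mouse 51 was high for Kcnd2 at 9.59, Kcnip1 at 7.51 and Kcna4 at 6.79 (others 5.72 to 6.00) and low for Kcnab2 at 8.08. Its hippocampus array was low for Kcna4 at 5.88. The hippocampus array of TG female mouse 4 was low for Kcnip2 at 7.20 (others 8.25 to 8.64), Kcnj3 at 6.74 and Kcnv1 at 5.56 and high for Kcnh3 at 7.10 (others 6.16 to 6.56).

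Kcne2 was high in the hippocampus arrays of the mouse 7 labelled TG female (8.09), WT female mouse 5 (6.30) and WT male mouse 52 (7.54), and low in the frontal cortex of WT female mouse 6 (2.77), where Kcnab2 was also low (8.23). The remaining marks were single. They were Kcnv1 at 6.53 in the cortex of TG male 45, Kcna3 at 5.16 in that of TG male 46 and Kcnj2 at 3.37 in that of TG female 12. In the hippocampus they were Kcnj12 at 3.38 in TG male 53, Kcnh1 at 6.58 in WT female 3, Kcns1 at 4.31 in TG male 44, Kcnn4 at 3.45 in WT male 42 and Kcnv2 at 3.39 in WT female 2.

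The TG effect differed between the regions, tested as hippocampus minus frontal cortex, for Kcnab1 (0.44), Kcnh1 (0.33), Kcns1 (0.37), Kcnq5 (0.45), Kcnv1 (0.44) and Kcnk6 (-0.47).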

How the results depend on the processing

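Results were recomputed with array medians made equal, with quantile normalization within each fit, over brighter genes only, over every probe set, with a robust trended prior, with weighted arrays, with 1 spread for all 8 groups, in each sex alone, with the mouse as a replicate block, without hippocampus mice 4 and 7, with the choroid plexus mean as a covariate and without each array in turn. Of the Kcn genes that had passed in a comparison, Kcnc4 alone turned its direction in these, from -0.16 in the TG cortex to 0.047 in males alone (adjusted p = 0.737). The 42 calls in the TG cortex became 26 in females alone. The 14 in the TG hippocampus became 22 with equal medians, 2 in males alone, 6 in females alone and 8 with the choroid covariate. The 6 region differences of the TG effect became 11 with array weights and 10 without mice 4 and 7; leaving out 1 array at a time gave 5 to 12. With the replicate block they became 8 (mouse as a fixed term) or 9 (random term), with all 6 among them, and the WT region differences 48 in both forms against 47, with 46 and 47 of them shared. Leaving out 1 array gave 37 to 42 calls in the TG cortex, 10 to 18 in the hippocampus and 46 to 48 between the WT regions. For males or females alone, the TG difference of that sex was taken within the fit of both sexes, with their shared spread. The cause of these shifts was not tested. Small differences of the 40 genes with a mean below the array median are the least certain, since no detection calls were used. Among genes that had not passed, sign turns were looked for only in the named ones, and not in the fits without 1 array. Their estimates turned sign as follows. With the choroid covariate Kcne2 went to -0.72 between the WT regions (adjusted p = 2.76e-06) and to -0.15 in the TG hippocampus. As said above, the estimate of -0.72 cannot be read as a region difference. In the TG hippocampus Kcnk13 went to -0.0083 with array weights, -0.021 in females and -0.035 without mice 4 and 7, and Kcnip2 to 0.017 in males and 0.013 without mice 4 and 7. Males alone gave -0.017 for Kcnj16 and 0.0043 for Kcnj8, and females alone 0.0087 for Kcnn2. In the TG cortex Kcne2 went to -0.0058 in males and Kcnj6 to 0.015 in females.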
